A study of Mus musculus with 13 samples.

Results

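The genes described here are 10 markers that mouse kidney studies use for the parietal epithelium of the glomerulus and for injured tubules: Cd44, Cldn1, Pax8, Krt8, Krt18, Krt19, Cdh6, Sox9, Havcr1 and Lcn2. They were taken by symbol from the deposited table, and all 10 were found among its 46958 genes. The table counts messenger RNA reads from renal glomeruli, the capillary tufts that filter blood, which were isolated on beads. The mice were 6 months old and of mixed C57/BL6, 129/SV and BALB/c descent. The 13 libraries comprised 4 of genotype kFRA (LCDD), 4 of genotype DH-LMP2A and 5 of wild type (WT). LCDD stands for light chain deposition disease, in which a monoclonal immunoglobulin light chain deposits in the kidney. The published kFRA mouse makes a human kappa light chain from its own kappa locus. In the DH-LMP2A background a viral protein replaces the B-cell receptor signal. The labels do not say whether the LCDD mice here also carried the DH-LMP2A allele. Each library pooled 3 mice, except WT replicates 3, 4 and 5, which came from 1 mouse each. No treatment was recorded for any group. The recorded age and mixed strain descent were the same in all 3, which does not show an equal share of each strain.

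Parietal epithelial cells line Bowman's capsule, the cup around the capillary tuft, and join the proximal tubule at its mouth. They carry Claudin-1 and Pax8 in the resting state, and in glomerular scarring activated cells carry CD44 and move onto the tuft. Tubule cells that are damaged switch on Havcr1, the kidney injury molecule KIM-1, and Lcn2, the secreted lipocalin NGAL, and re-express developmental and simple epithelial genes such as Sox9, Krt8, Krt18 and Krt19. A bead preparation of glomeruli holds the tuft, part of the capsule and whatever tubule stays attached. In such a bulk sample fewer cells of a type and less RNA per cell cannot be told apart.

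Libraries held 16687509 to 30587890 counts. The podocyte markers Nphs1, Podxl and Wt1 were detected in all 13 libraries, with 12 podocyte markers summing to 8475 to 38255 CPM. CPM are counts scaled to library size after trimmed mean of M-values (TMM) normalisation. Proximal tubule RNA was present in all libraries as well, and 12 of its markers summed to 131 to 4039 CPM. The sample titles start with a code, NS161202, NS170411, NS171018 or NS180319, which each LCDD and DH-LMP2A library shares with 1 library of the other genotype. Its meaning is not given in the labels, and it is called the title code below. WT had 1 library with code NS161202, none with NS170411, 1 with NS171018 and 3 with NS180319. Reads of the Y-linked gene Ddx3y numbered 0 or 1 in 4 of the 5 WT libraries and 197 in WT replicate 2, against 208 to 2214 in LCDD and 435 to 2296 in DH-LMP2A, so male RNA was unevenly spread over the genotypes.

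On build GRCm38 the members lie on 4 chromosomes. Cd44 (102811141 to 102901665, minus strand), Pax8 (24420560 to 24475599, minus) and Lcn2 (32384633 to 32388252, minus) are on chromosome 2. Krt19 (100140810 to 100148665, minus), Sox9 (112782224 to 112787760, plus) and Havcr1 (46735080 to 46779578, plus) are on chromosome 11, and Cldn1 (26356642 to 26371841, minus) is on chromosome 16. The remaining 3 are on chromosome 15: Cdh6 (13034200 to 13173639, minus), Krt8 (101996711 to 102004342, minus) and Krt18 (102028216 to 102032026, plus). All 10 are protein-coding genes in GENCODE M21, and each value is a sum over the exons of the gene. Pax8 shares 367 exon bases with the antisense transcript Gm13415, and Krt8 shares 101 with the antisense transcript Gm36026. The strand setting of the counting is not given in the sources used here, so reads from those stretches are uncertain.

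Krt8 and Krt18 encode the type II and type I keratins that pair into the filaments of simple epithelia, and in GENCODE M21 the genes point away from each other. Their promoters are shown because the messages of these neighbours varied together more closely than those of other members described below. Each sequence runs from 250 bases before to 50 bases after the RefSeq start of the gene (GRCm38.p6), at chr15:102004293-102004592 on the minus strand for Krt8 and chr15:102027966-102028265 on the plus strand for Krt18. Capitals mark the stretch with TATA box letters in Krt8 and the single match to the SOX motif in Krt18. The Krt8 matches begin at bases -3 and -1, so the stretch spans the RefSeq start.
Krt8: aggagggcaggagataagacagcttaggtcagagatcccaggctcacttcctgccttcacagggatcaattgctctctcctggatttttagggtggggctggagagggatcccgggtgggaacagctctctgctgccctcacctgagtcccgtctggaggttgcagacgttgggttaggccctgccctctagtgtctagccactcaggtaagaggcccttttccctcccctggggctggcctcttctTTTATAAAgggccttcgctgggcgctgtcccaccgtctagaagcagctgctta
Krt18: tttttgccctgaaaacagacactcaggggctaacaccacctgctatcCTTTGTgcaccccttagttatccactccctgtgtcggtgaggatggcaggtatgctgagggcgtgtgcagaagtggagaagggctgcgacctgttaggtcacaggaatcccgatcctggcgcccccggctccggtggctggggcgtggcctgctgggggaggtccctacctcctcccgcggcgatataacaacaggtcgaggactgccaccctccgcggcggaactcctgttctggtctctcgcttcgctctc
RefSeq promoters were given for 8 of the 10 members, in 10 entries, and none was used for Krt19 or Sox9. Both strands were searched for 6 motifs. TATAAA was found in 1 of the 10 entries, that of Krt8, against 13.6% of 32851 mouse promoters of the same length. The SOX letters ACAAAG or ACAATG were in 3 entries against 28.6% of all promoters, and the SP1 box GGGCGG was in 5 against 35.7%. The CCAAT box was in 1 entry against 37.4%, the AP-1 letters TGANTCA were in 1 against 7.81%, and the STAT letters TTCNNNGAA were in none against 8.30%. A match is only a description of these letters.

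Levels were compared between genes as CPM per 1000 bases of exon, as mean and SD over the 13 libraries. Cldn1 was highest at 4.63 ± 3.09 (SD, n = 13), followed by Krt8 at 3.44 ± 2.90 and Pax8 at 2.37 ± 0.930. Cd44 stood at 1.37 ± 0.541, Krt18 at 1.001 ± 0.877 and Cdh6 at 0.791 ± 0.472. The injury markers were low, Havcr1 at 0.350 ± 0.347 and Lcn2 at 0.264 ± 0.226. Krt19 at 0.0692 ± 0.0788 and Sox9 at 0.0566 ± 0.0699 closed the order. Pax8 and Cd44 were the only neighbours in this order whose means lay further apart than the SD of either. The other neighbours differed by less than the larger of their SDs. A floor of 3 counts per library, which was 0.0971 to 0.185 CPM, was taken as the smallest readable level. Krt19 was at or under it in 8 libraries, Sox9 in 7, Havcr1 in 3 and Lcn2 in 2.

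**Figure D1:**
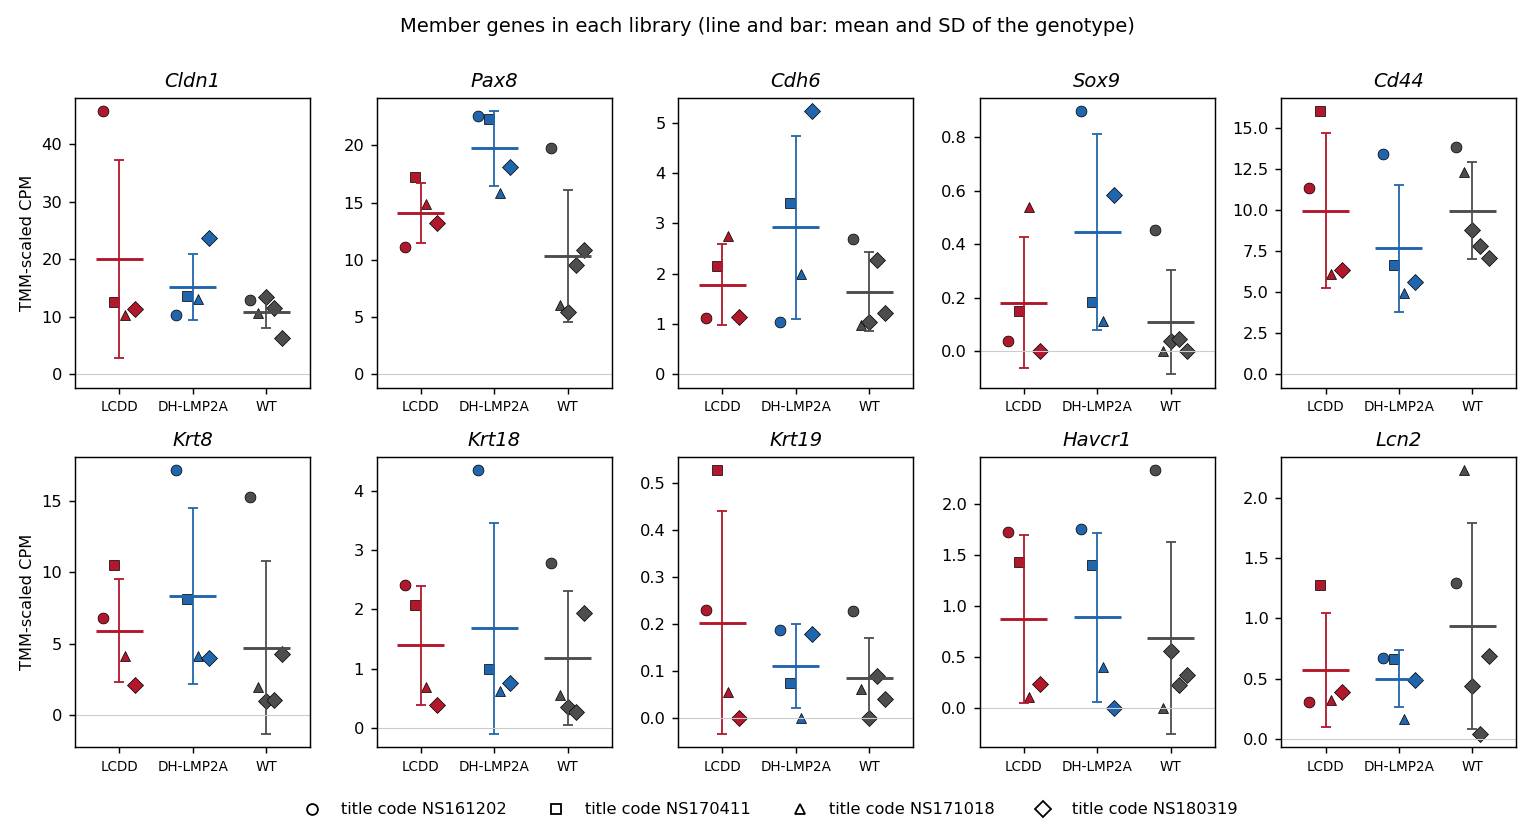
TMM-scaled CPM (vertical axes) of the 10 genes by genotype (horizontal axes). Each point is 1 library, its marker shape gives the title code, and bars show the genotype mean and SD. The genotypes overlap in every panel, and Cldn1 in LCDD replicate 1 stands alone at 45.8 CPM.

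The comparison of LCDD with DH-LMP2A, of LCDD with WT and of DH-LMP2A with WT asked whether these genes differed with the light chain genotype or with DH-LMP2A itself. No member passed the test. In edgeR's quasi-likelihood test with Benjamini-Hochberg adjustment over 16738 genes, 0 of the 9 members tested reached an adjusted p under 0.05 in any of the 3 comparisons, and DESeq2 also called 0 in each. At an unadjusted p under 0.05 the counts were 0, 0 and 1 of 9, against 13.1%, 12.0% and 12.5% of all genes. Of all genes tested, the same test called 334 (2.00%) in the first comparison, 308 (1.84%) in the next and 105 (0.627%) in the last. Krt19 had at most 14 counts, did not pass the filter on low counts and was not tested. The CPM of the genotypes overlapped for all 10 genes in all 3 comparisons, while 7.62%, 4.59% and 4.97% of all tested genes had groups that did not overlap.

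The members' median log2 difference was -0.27 for LCDD against DH-LMP2A, with 3 of 9 above 0. It was 0.31 for LCDD against WT, with 8 of 9 above 0, and 0.50 for DH-LMP2A against WT, with 7 of 9 above 0. Over all 16738 genes the medians were -0.01, 0.01 and 0.00. These 3 comparisons share libraries and their medians are not independent. The 8 above 0 against WT included Cd44 at 0.0027, which changed sign in 15 of 26 alternatives. Members also varied together, such as Krt8 and Krt18 (Pearson r of 0.907), so their signs are not independent either. With the title code as a block, described below, 5 of 9 were above 0 in each WT comparison. How far a difference could have been missed varied by gene. The narrowest 95% intervals were those of Pax8 and Cd44, and the widest were those of Sox9 and Havcr1. A p above the threshold does not show that the levels were equal.

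**Figure D2:**
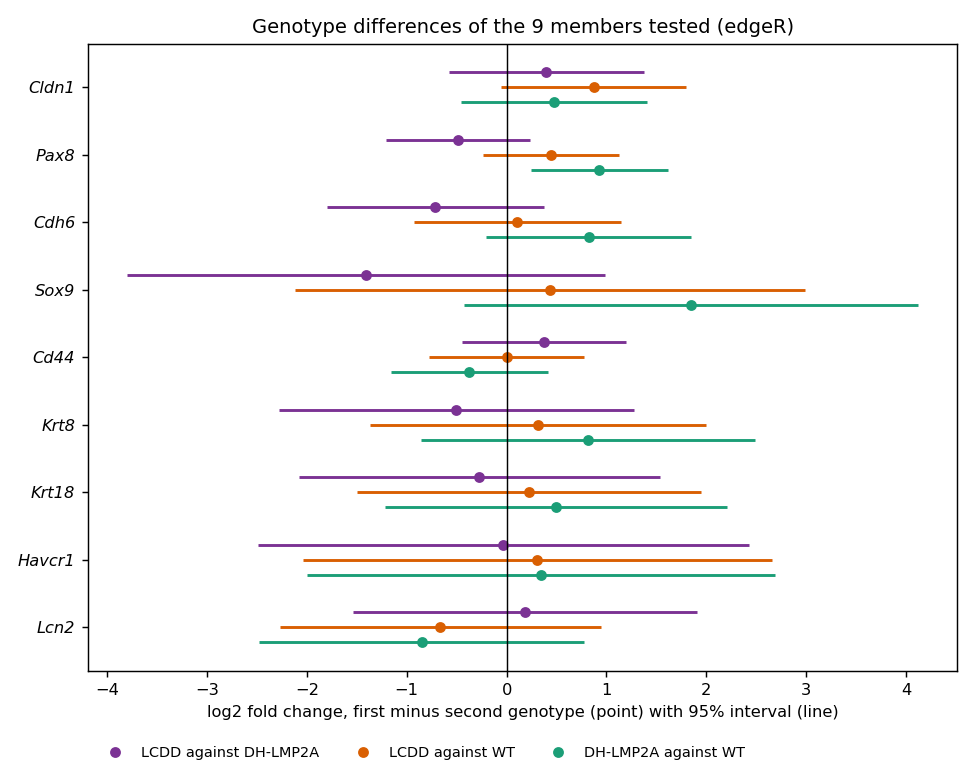
Log2 fold changes of the 9 tested genes (horizontal axis, first genotype over second) with 95% intervals from edgeR's quasi-likelihood fit, 1 row per gene and 1 colour per comparison. Of the 27 intervals, 26 include 0, and the exception is Pax8 in DH-LMP2A against WT, which did not pass adjustment.

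Among the genes of the resting parietal cell, Pax8 came closest to a difference. Pax8 is a paired-box transcription factor of kidney development that persists in parietal and tubule epithelium. In LCDD replicates 1 to 4 it read 11.1, 17.2, 14.9 and 13.3 CPM. In DH-LMP2A replicates 1 to 4 it read 22.6, 22.3, 15.9 and 18.1 CPM. In WT replicates 1 to 5 it read 19.8, 6.05, 5.45, 9.53 and 10.8 CPM. WT replicate 1 was inside the DH-LMP2A range and the other 4 WT libraries were below it. The means were 14.1 ± 2.597 CPM in LCDD (SD, n = 4), 19.7 ± 3.28 in DH-LMP2A (SD, n = 4) and 10.3 ± 5.75 in WT (SD, n = 5). For DH-LMP2A against WT the log2 fold change was 0.93 ± 0.32 (SE), with a 95% interval of 0.25 to 1.61 and an adjusted p of 0.243 by edgeR's quasi-likelihood test. Without WT replicate 1 the difference was 1.31 with an adjusted p of 0.0201 by edgeR, a call. Without the libraries of title code NS161202 it was 1.24 with an adjusted p of 0.0338 by edgeR, also a call. Calls over all genes in this comparison also rose in those fits, to 407 and 392, from 105 with all libraries. With 2 tubule marker scores as covariates the Pax8 difference was 0.45 with an adjusted p of 0.704. Proximal tubule markers summed to 4039 CPM in WT replicate 1 and 131 to 616 in the other 4 WT libraries. They summed to 647 to 3748 CPM in DH-LMP2A. None of the 12 was called between the genotypes, though their median log2 difference in DH-LMP2A against WT was 0.97. Sex composition also differed, as the Ddx3y counts show, and with Ddx3y as a covariate the Pax8 difference was 1.82 with an adjusted p of 0.360. Pax8 was lower in LCDD than in DH-LMP2A by 0.48 ± 0.33 (SE) on the log2 scale, with an interval of -1.21 to 0.24. Within the 4 title codes that difference was -1.02, -0.37, -0.09 and -0.45 on the log2 CPM scale, below 0 in each, and it was not called (adjusted p = 0.611 by edgeR).

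Cldn1, the tight junction protein claudin-1 of parietal cells and tubules, was set apart by a single library. In LCDD replicates 1 to 4 it read 45.8, 12.5, 10.3 and 11.4 CPM. In DH-LMP2A it read 10.4, 13.6, 13.1 and 23.6 CPM. In WT it read 12.8, 10.6, 13.5, 11.5 and 6.25 CPM. All libraries but LCDD replicate 1 lay between 6.25 and 23.6 CPM, and the genotypes overlapped. LCDD exceeded DH-LMP2A by 0.40 ± 0.45 (SE) and WT by 0.87 ± 0.43 on the log2 scale, with edgeR adjusted p of 0.777 and 0.463. Without LCDD replicate 1 the difference from DH-LMP2A turned to -0.41 and that from WT shrank to 0.06. Within the title codes the LCDD minus DH-LMP2A difference in log2 CPM was 2.13, -0.12, -0.34 and -1.05. LCDD replicate 1 also had the lowest podocyte marker sum, 8475 CPM, and the highest mesangial sum, 9802 CPM. The part of these in its Cldn1 level was not tested.

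Cdh6 encodes K-cadherin, an adhesion protein of the developing nephron. It ranged from 1.11 to 2.75 CPM in LCDD, from 1.05 to 5.24 in DH-LMP2A and from 0.988 to 2.69 in WT. DH-LMP2A replicate 4 was highest at 5.24 CPM, or 117 counts, and DH-LMP2A replicate 1 was near the bottom at 1.05. LCDD was lower than DH-LMP2A, with a log2 difference of -0.71 ± 0.50 (SE), and DH-LMP2A exceeded WT by 0.82 ± 0.47. Neither passed, with edgeR adjusted p of 0.619 and 0.509. Sox9, a transcription factor that marks regenerating tubule cells, gave 24 counts at most. It had 1, 4, 10 and 0 counts in LCDD, 24, 5, 2 and 13 in DH-LMP2A and 14, 0, 1, 1 and 0 in WT. Every genotype had at least 1 library at or under the floor, and the genotypes overlapped. The DH-LMP2A against WT estimate of 1.84 had an interval of -0.43 to 4.12, with an edgeR adjusted p of 0.504.

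Cd44, the hyaluronan receptor that marks activated parietal cells and is also carried by leukocytes, had nearly the same mean in LCDD and WT. It read 11.4, 16.03, 6.09 and 6.35 CPM in LCDD replicates 1 to 4. DH-LMP2A replicates 1 to 4 read 13.4, 6.67, 4.97 and 5.64 CPM. WT replicates 1 to 5 read 13.8, 12.3, 8.81, 7.79 and 7.06 CPM. Each genotype held both high and low libraries. The LCDD and WT means were 9.96 ± 4.72 (SD, n = 4) and 9.95 ± 2.95 CPM (SD, n = 5). Their log2 difference was 0.00 ± 0.36 (SE), with an interval of -0.77 to 0.78, or a fold of 0.585 to 1.72. Among genes that averaged 1 CPM or more, Lyz2, the lysozyme of macrophages, had the pattern most like that of Cd44 over the 13 libraries, with a Pearson r of 0.943. Rhob (r = 0.928) and Ptpn18 (r = 0.912) followed. The 8 macrophage markers summed to 67.5 to 301 CPM and were highest in WT replicate 2 and LCDD replicate 2, where Cd44 was 12.3 and 16.03 CPM. Their part in the Cd44 values was not tested.

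Krt8 and Krt18 were the members that varied most in parallel. Krt8 read 6.83, 10.5, 4.15 and 2.13 CPM in LCDD, and 17.1, 8.15, 4.17 and 3.98 in DH-LMP2A. In WT it read 15.3, 1.98, 1.001, 1.07 and 4.26 CPM. The highest value of each genotype was at title code NS161202 or NS170411. Krt18 read 2.42, 2.07, 0.700 and 0.394 CPM in LCDD, and 4.34, 1.0002, 0.628 and 0.761 in DH-LMP2A. In WT it read 2.78, 0.556, 0.360, 0.268 and 1.95 CPM. Over the 13 libraries, which share depth and preparation, Krt8 and Krt18 had a Pearson r of 0.907 and a Spearman rho of 0.940 in log2 CPM. The ratio of Krt8 to Krt18 per 1000 bases ran from 1.70 to 6.32. No keratin difference between genotypes passed. Krt8 in DH-LMP2A against WT was 0.82 ± 0.78 (SE) with an edgeR adjusted p of 0.701, and Krt18 was 0.50 ± 0.79 with 0.834. Leaving out 1 library moved the Krt8 difference from 0.19, without DH-LMP2A replicate 1, to 2.01, without WT replicate 1, and the lowest adjusted p in those edgeR fits was 0.123. Krt19, the keratin of ducts and progenitor-like tubule cells, had 6, 14, 1 and 0 counts in LCDD, 5, 2, 0 and 4 in DH-LMP2A and 7, 1, 0, 2 and 1 in WT. LCDD replicate 2 was the only library above 10 counts.

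Krt8 was most like Cdh16 (r = 0.991), the kidney-specific cadherin of tubule cells, then Klhdc7a (r = 0.987) and Shank2 (r = 0.980). Krt18 was most like Wfdc15b, Kdf1 and Esrrb, with r of 0.977, 0.972 and 0.968. Pax8 was most like Pkhd1 (r = 0.944), which encodes the fibrocystin of tubule cilia, then BC067074 and Gnmt. Cldn1 was most like Arl4a (r = 0.902), Klf6 (r = 0.855) and Serp1 (r = 0.832). Their Spearman rho, which gives less weight to LCDD replicate 1 where Cldn1 stood alone, was 0.791, 0.577 and 0.593. For Cdh6, Sox9 and Krt19 the leading genes were Gxylt2 (r = 0.918), Osr2 (r = 0.819) and Pappa2 (r = 0.895), and the last 2 of these rest on counts near the floor. These rankings were taken over 12858 genes in 13 shared libraries and describe likeness of pattern only.

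Havcr1, the phosphatidylserine receptor that injured proximal tubule cells place on their surface, was detected at low counts, with high and low libraries in each genotype. It had 45, 38, 2 and 6 counts in LCDD replicates 1 to 4. DH-LMP2A replicates 1 to 4 had 47, 38, 7 and 0. WT replicates 1 to 5 had 72, 0, 14, 5 and 8. The 5 libraries with title codes NS161202 and NS170411 held 38 to 72 counts and the other 8 held 0 to 14, whatever the genotype. LCDD and DH-LMP2A differed by -0.03 ± 1.14 (SE) on the log2 scale, an interval of -2.49 to 2.43. Its most similar genes were Map2k6 (r = 0.943), Cep19 (r = 0.936) and Gclc (r = 0.929).

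Lcn2, an iron-siderophore carrier of injured tubules that neutrophils also store, read 0.307, 1.28, 0.323 and 0.394 CPM in LCDD. DH-LMP2A read 0.673, 0.667, 0.171 and 0.492 CPM. WT read 1.29, 2.22, 0.440, 0.0447 and 0.689 CPM. The highest library was WT replicate 2, with 36 counts, and the lowest was also WT. The LCDD against WT difference was -0.66 ± 0.75 (SE) on the log2 scale with an edgeR adjusted p of 0.847. The 10 neutrophil markers summed to 63.4 CPM in WT replicate 2 and to 12.7 to 27.7 in the other 12 libraries, while Ly6g, Mpo and Elane were at or under the floor in all 13. Lcn2 was most like Trem1 (r = 0.890), a receptor of myeloid cells, then Il1b (r = 0.889) and Mbp (r = 0.870). The part of leukocytes in the Lcn2 values was not tested.

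The values of Krt8, Krt18, Havcr1 and Cd44 were next read by title code. An F test of the 4 codes beside genotype, added after the data were seen, called Krt8 (adjusted p = 0.0251) and Havcr1 (adjusted p = 0.0236) in edgeR. That is 2 of 9 members, or 22.2%, against 18.6% of all genes (3115), a share near the background. Mean Krt8 was 13.1 ± 5.49 CPM (SD, n = 3) at code NS161202, 9.33 ± 1.66 (n = 2) at NS170411, 3.43 ± 1.26 (n = 3) at NS171018 and 2.49 ± 1.56 (n = 5) at NS180319. Mean Havcr1 was 1.94, 1.42, 0.169 and 0.269 CPM in the same order. The means of both were lowest at codes NS171018 and NS180319. Krt18 (means 3.18, 1.54, 0.628 and 0.746 CPM) and Cd44 (12.9, 11.4, 7.78 and 7.13) did not pass, with edgeR adjusted p of 0.0614 and 0.0513. The calls depended on single libraries, and so did the number over all genes. Without WT replicate 1 no member was called (2480 genes in all). Without LCDD replicate 1 or 3 only Krt8 was (1869 and 1800 genes). Without DH-LMP2A replicate 1 or 3 only Havcr1 was (1986 and 2009 genes). Cd44 was called besides Krt8 and Havcr1 without LCDD replicate 2, DH-LMP2A replicate 2 or WT replicate 2 (2172, 2961 and 2863 genes). Krt18 was called besides Krt8 and Havcr1 without WT replicate 5 (2729 genes).

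Proximal tubule markers differed by the code too. The 12 proximal tubule markers summed to 1675 to 4039 CPM at NS161202, 2161 to 2708 at NS170411, 237 to 1185 at NS171018 and 131 to 688 at NS180319, and 11 of the 12 were called by the same test. The 18 markers of the loop, distal tubule and collecting duct summed to 1090 to 2176, 971 to 1462, 370 to 547 and 226 to 846 CPM, with 3 of 18 called, against the 18.6% of all genes given above. Podocyte markers ran the other way, from 8475 to 18222 CPM at NS161202 and 15016 to 23914 at NS170411 to 34803 to 36811 at NS171018 and 28233 to 38255 at NS180319, with 12 of 12 called. With both tubule scores as covariates the code test called 0 members (Krt8 adjusted p = 0.822, Havcr1 adjusted p = 0.502), and 2 genes of all tested, in a fit with fewer residual degrees of freedom.

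**Figure D3:**
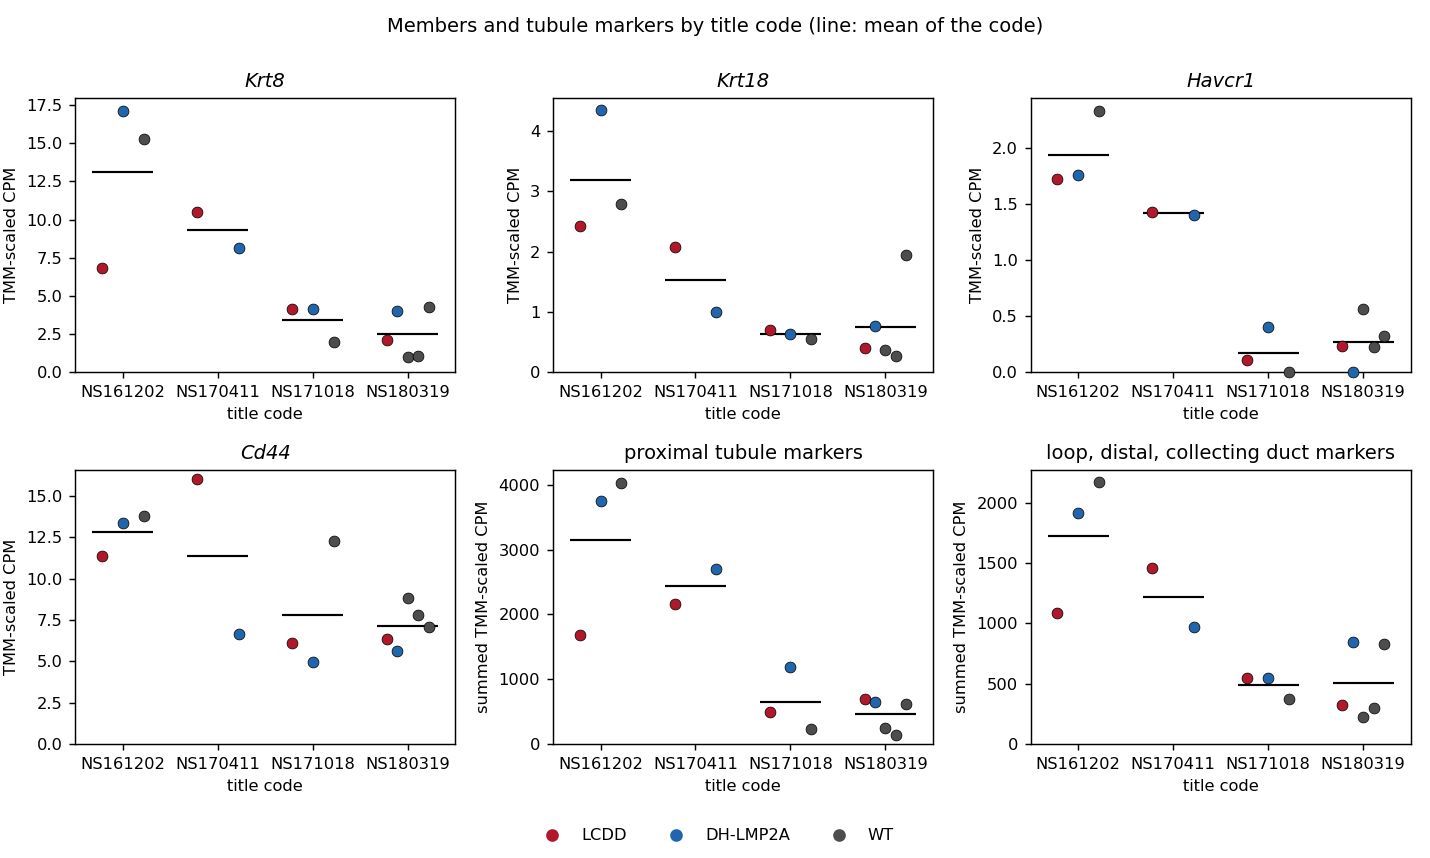
TMM-scaled CPM of Krt8, Krt18, Havcr1 and Cd44, and summed CPM of 2 sets of tubule markers (vertical axes), by title code (horizontal axes). Each point is 1 library coloured by genotype and the line is the mean of the code. Krt8, Havcr1 and the proximal tubule markers are higher at NS161202 and NS170411 than at NS171018 and NS180319.

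With the title code as a block, which compares genotypes within a code, again 0 of 9 members were called in each comparison, against 6.10%, 3.20% and 3.36% of all genes in the order given above. WT had no library with NS170411, and its same-code pairs did not always deviate together (correlation down to -0.16). The code is not taken to pair WT, which limits the block results against WT here and below. At an unadjusted p under 0.05 the counts were 0, 0 and 2 (Cd44 and Pax8), against 22.5%, 17.5% and 21.7% of all genes. The members' medians in that fit were -0.13, 0.02 and 0.54, and 3, 5 and 5 of the 9 differences were above 0. Within the 4 codes, LCDD minus DH-LMP2A in log2 CPM was -1.32, 0.36, -0.01 and -0.88 for Krt8 and -0.24, 1.26, 0.29 and 0.17 for Cd44. For Havcr1 it was -0.03, 0.02, -1.34 and 1.93. Pax8 was the 1 tested member whose sign was the same in all 4 codes.

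**Figure D4:**
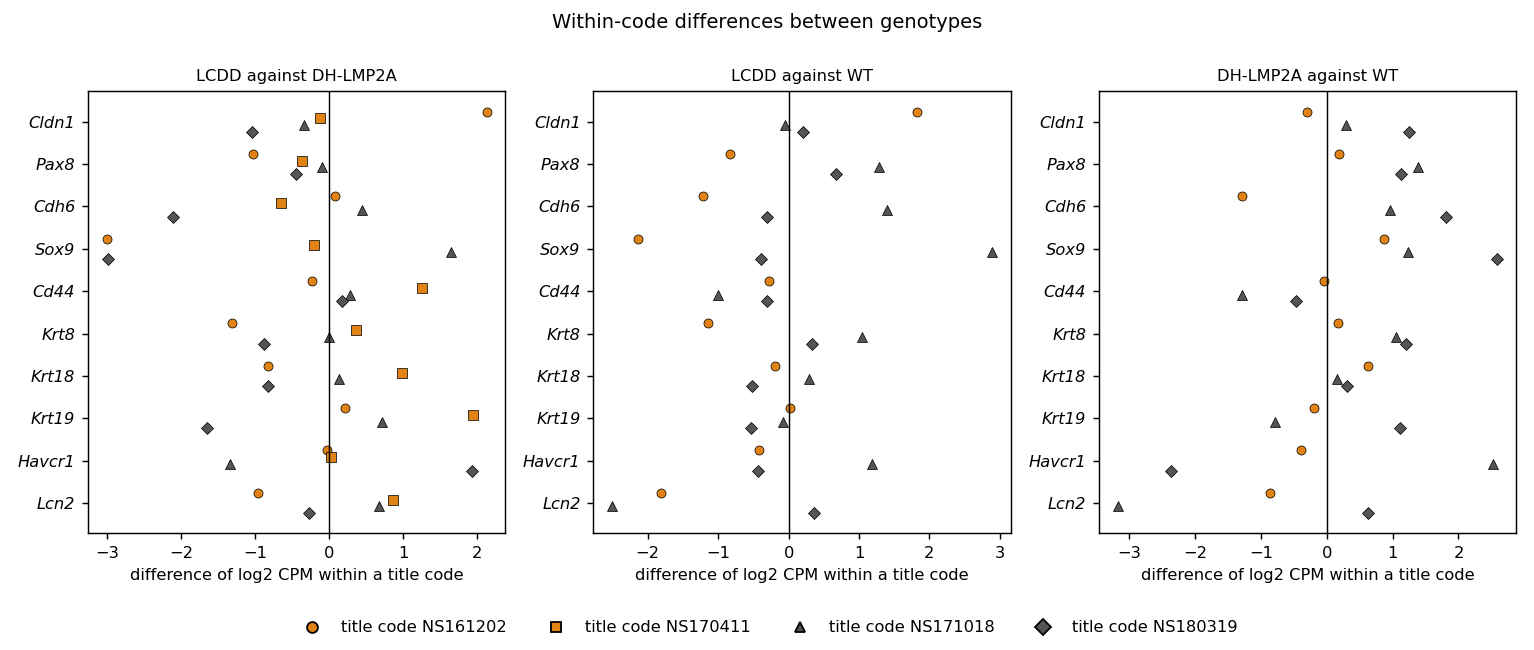
Difference in log2 CPM between genotypes (horizontal axes) within each title code, for the 10 genes (vertical axes), in 1 panel per comparison; each marker is 1 code, with the 3 WT libraries of NS180319 averaged. In LCDD against DH-LMP2A, Pax8 lies below 0 in all 4 codes and the other 9 genes fall on both sides.

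Further lists held other genes of the same cells and pathways. Of 10 further parietal genes, 1 was called in LCDD against DH-LMP2A, and none in the other 2 comparisons without the block. Dkk3, a secreted modulator of Wnt signalling, fell from 17.6 ± 5.65 CPM in DH-LMP2A (SD, n = 4) to 7.02 ± 2.18 in LCDD (SD, n = 4), by 1.33 on the log2 scale (SE 0.27, edgeR adjusted p = 0.0271). Dkk3 was lower in LCDD under all 26 alternatives, from -1.52 to -1.03, and called in 16. It was not called without LCDD replicate 1 or 4 or without DH-LMP2A replicate 2, 3 or 4, where the adjusted p was 0.0704 to 0.0986. With the block Dkk3 kept its call (adjusted p = 0.00704) and the list had 2 calls in that comparison, both lower in LCDD (Dkk3 and Ncam1). Cd24a and Akap12 had differences of -0.14 and -0.04 in LCDD against WT. Akap12, a scaffold protein for kinases, was 92.8 ± 12.1 CPM in DH-LMP2A (SD, n = 4) and 134 ± 10.5 in WT (SD, n = 5), a log2 difference of -0.53 with an edgeR adjusted p of 0.194. With the block Akap12 passed in that comparison, at -0.60 with an edgeR adjusted p of 0.0382. Of 10 genes of parietal activation signals, 0 were called in any comparison without the block. Itgb1, the integrin subunit that binds collagen and laminin, was 0.65 higher in LCDD than in DH-LMP2A on the log2 scale with an adjusted p of 0.0910, and with the block 0.64 with 0.0272, both by edgeR.

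Of 28 further tubular injury genes, 26 were tested, and 0 were called in LCDD against DH-LMP2A (6 at an unadjusted p under 0.05) and 0 in DH-LMP2A against WT (3 at an unadjusted p under 0.05) by edgeR. With the block each of these comparisons had 1 call, S100a6 higher in LCDD (1.09, edgeR adjusted p = 0.0242) and Clu lower in DH-LMP2A (-1.60, edgeR adjusted p = 0.0425). Of 25 relatives of the members, 23 were tested and 1 was called in LCDD against WT. Cdh2, N-cadherin, rose to 14.9 ± 4.63 CPM (SD, n = 4) from 7.80 ± 0.366 (SD, n = 5), by 0.93 ± 0.18 (SE, edgeR adjusted p = 0.0167). Cdh2 was not called without LCDD replicate 1 or 4 or without WT replicate 3, 4 or 5, with an adjusted p of 0.0502 to 0.0581. With the block it was called again, and Sox18 and Cdh5 of the same list were lower in DH-LMP2A than in WT, with log2 differences of -1.26 and -1.19 (edgeR adjusted p = 0.0303 and 0.0341). Of 12 genes of hyaluronan and Lcn2 binding, 9 were tested and 1 was called, in both LCDD comparisons. Hmmr, a hyaluronan-binding protein that also acts in the mitotic spindle, was 3.20 ± 1.56 CPM in LCDD (SD, n = 4), 0.644 ± 0.218 in DH-LMP2A (SD, n = 4) and 0.704 ± 0.261 in WT (SD, n = 5). Its log2 differences were 2.31 (adjusted p = 0.0152) and 2.18 (adjusted p = 0.0108) by edgeR. Without DH-LMP2A replicate 2 or 3 the first had an adjusted p of 0.0653 and 0.0609.

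Few markers of the other cell types in the preparation were called between genotypes without the block. Of 10 mesangial markers, Serpine2 and Ptn rose in LCDD against DH-LMP2A, by 1.29 and 1.09 on the log2 scale (edgeR adjusted p = 0.0446 and 0.0334), and Ptn rose against WT by 1.12 (edgeR adjusted p = 0.0191). Both calls against DH-LMP2A were lost in 9 of the 13 fits that left out 1 library. The call of Ptn against WT was lost without LCDD replicate 2 or WT replicate 3, 4 or 5, with an adjusted p of 0.0506 to 0.0609, and with the Ddx3y covariate the difference was 1.31 with 0.378. Of 12 podocyte markers, 1 was called. Ptpro, a phosphatase of the podocyte surface, was 326 ± 144 CPM in LCDD (SD, n = 4) and 1426 ± 517 in WT (SD, n = 5), a log2 difference of -2.13 (edgeR adjusted p = 0.0176). It lost its call without LCDD replicate 2 or WT replicate 4, with an adjusted p of 0.0568 and 0.0501. No marker of glomerular endothelium (10), proximal tubule (12), loop, distal tubule and collecting duct (18), macrophages (8), neutrophils (6 of 10 tested), lymphocytes (9) or urothelium (3 of 8 tested) was called in any of the 3 comparisons without the block.

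With the block more markers were called, with the limit given above for comparisons with WT. In LCDD against DH-LMP2A, 4 mesangial markers were higher (Serpine2, Itga8, Cald1 and Ptn) and 1 endothelial marker was higher (Sost). In LCDD against WT, 2 mesangial markers were higher (Myl9 and Ptn), and 1 podocyte marker (Ptpro) and 1 neutrophil marker (Ltf) were lower. In DH-LMP2A against WT, 3 endothelial markers were lower, with log2 differences of -1.40 for Kdr, -1.21 for Flt1 and -1.19 for Cdh5 (edgeR adjusted p = 0.0493, 0.0395 and 0.0341). In the same comparison 1 podocyte marker, Ptpro, was lower. Ltf, lactoferrin of neutrophil granules, was lower than WT in both LCDD (-0.71) and DH-LMP2A (-0.75), with edgeR adjusted p of 0.0472 and 0.0419. No proximal tubule, loop, distal tubule, collecting duct, macrophage, lymphocyte or urothelium marker was called with the block. The genes named as called with the block alone were chosen after their values were seen.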

How the data were processed

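Values start from the authors' deposited raw counts of reads per gene in 13 libraries, whose column layout is that of featureCounts, per the file headers. The submitters' processing notes name STAR 2.4.0a, featureCounts, Subread 1.5.0-p3, DESeq2 and mm10/GRCm38, with no role or order. Per the labels' protocols, the mRNA libraries were of a stranded kind and sequenced in paired ends on an Illumina NextSeq. The counting's strand setting and annotation are not given in the sources used here. All 13 count columns carried the title of 1 sample each. Replicates of a group differed by more than sampling noise in all 22 pairs (chi-square per degree of freedom 12.6 to 233.9), and p-values measure the spread between these pools and single mice.

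Counts were fitted in edgeR 4.0.16 (R 4.3.3) with TMM scaling, filterByExpr (minimum count 10), 1 coefficient per genotype and all 13 libraries, and quasi-likelihood tests were adjusted by Benjamini-Hochberg over 16738 genes, with 30220 genes left out. A gene was called at an adjusted p under 0.05. Log2 CPM used a prior count of 2, and intervals cover 95%. The genotype fit without the block was also run on simulated counts. These held no title code or tubule differences, and that run did not test the block, covariate or title code fits. Alternatives were DESeq2 1.42.0, other scaling and filters, 2 genotypes only, the title code as a block, tubule and Ddx3y covariates, and libraries left out. All 4 same-code pairs of LCDD and DH-LMP2A deviated together (correlation 0.153 to 0.593, mean 0.421), and the code was taken to pair them. The 12 pairs of unlike code ran from -0.599 to 0.524 (mean -0.139). Deviations were taken from the mean of each genotype, so a positive same-code mean draws the unlike-code mean below 0. The contrast of these means is thus no separate support for pairing. Some pairs of unlike code were as alike as same-code pairs, and these values do not show that pairing is by single code.

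All 10 members were named, and from each further list the called genes, up to 4 per comparison by size of change, or where none was called up to 2 of the highest mean CPM. For likeness the 3 highest correlations were named. The members and lists were chosen with earlier results of these data known, so their pattern is no independent support. Of the listed genes, 1 was not matched in the table. Some results on the further lists are not reported here. Promoters are from RefSeq, GRCm38.p6.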

Additional observations from a re-analysis of the deposited data

Results flagged for a closer look

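In 4 of 33 sets of 4 or 5 replicates, 1 library stood far from the others of its genotype by Dixon's gap test, and chance alone marks about 1 in 20 such sets. Cldn1 in LCDD replicate 1 was 5.52 in log2 CPM against 3.37 to 3.66 in the other 3 LCDD libraries. Lcn2 in LCDD replicate 2 was 0.45 in log2 CPM against -1.35 to -1.06 in the other 3. Sox9 in WT replicate 1 was -0.90 in log2 CPM, from 14 counts, against -3.57 to -2.96 in the other 4 WT libraries, which held 0 or 1 count each. The total of LCDD replicate 3 was 18604929 counts against 25276687 to 26544422 in the other 3 LCDD libraries.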

How the results depend on the processing

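Of 684 log2 differences of members over all alternatives, 602 kept their sign and their side of the threshold, 80 changed sign with none of those called, and 2 became calls, both Pax8 in DH-LMP2A against WT. Pax8 was the only 1 of the 9 tested members whose 3 differences kept their sign in every alternative. Leaving out the libraries of 1 title code, and every alternative of the title code test, was chosen after seeing the data. Depth limits Sox9, Krt19, Havcr1 and Lcn2, which lay at or under 3 counts in 2 to 8 libraries. Without the filter on low counts Krt19 was tested and not called, with edgeR adjusted p of 0.800, 0.712 and 0.957. Sox9 did not pass the filter in every fit and gave no value where it was left out.

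The number of all genes called moved by more than 1.5 times in these settings. With DESeq2 it was 812 for LCDD against DH-LMP2A, 726 for LCDD against WT and 458 for DH-LMP2A against WT. With only the 2 genotypes compared in the fit it was 213 for LCDD against DH-LMP2A and 185 for LCDD against WT. With the replicate block it was 1021 for LCDD against DH-LMP2A, 536 for LCDD against WT and 562 for DH-LMP2A against WT. With the tubule marker covariates it was 1028 for LCDD against DH-LMP2A and 202 for LCDD against WT. With the Ddx3y covariate it was 22 for LCDD against WT and 53 for DH-LMP2A against WT. Without the 3 single-mouse WT libraries it was 54 for LCDD against WT and 69 for DH-LMP2A against WT. Without title code NS161202 it was 392 for DH-LMP2A against WT. Without title code NS170411 it was 46 for LCDD against DH-LMP2A, 174 for LCDD against WT and 20 for DH-LMP2A against WT. Without title code NS171018 it was 24 for DH-LMP2A against WT and 209 for LCDD against DH-LMP2A. Without title code NS180319 it was 32 for LCDD against DH-LMP2A, 18 for LCDD against WT and 26 for DH-LMP2A against WT. Leaving out 1 library at a time it was 113 to 484 for LCDD against DH-LMP2A, 159 to 441 for LCDD against WT and 29 to 407 for DH-LMP2A against WT, and 0 members were called in both LCDD comparisons, 0 or 1 in DH-LMP2A against WT, the 1 being Pax8 without WT replicate 1. Without title code NS161202, 1 member was called in DH-LMP2A against WT, again Pax8. All genes called in that comparison were 407 without WT replicate 1 and 392 without that code. The title code test called 0 members and 2 genes with the tubule marker covariates. Without the filter on low counts, where more genes were tested, it called 4 members (Cd44, Krt8, Krt18 and Havcr1) and 2544 genes. It called 0 to 3 members and 1502 to 2961 genes when 1 library was left out. The cause of these moves was not tested, beyond the smaller number of libraries where some were left out.

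With the replicate block, the pairing by title code changed no member's call in any comparison, and Pax8 in DH-LMP2A against WT was 0.85 with an adjusted p of 0.138 by edgeR. Same-code correlations were -0.16 to 0.40 for LCDD against WT and -0.16 to 0.57 for DH-LMP2A against WT, and not every pair exceeded 0.1, so the code is not taken to pair WT with the other genotypes. Reversed values below are log2 differences, none of them called. With DESeq2 reversed differences were Cd44 -0.024 for LCDD against WT. With RLE size factors reversed differences were Cd44 -0.023 for LCDD against WT. Without the filter on low counts reversed differences were Cd44 -0.021 for LCDD against WT. With only the 2 genotypes compared in the fit reversed differences were Cd44 -0.019 for LCDD against WT. With the replicate block reversed differences were Cd44 -0.36, Krt18 -0.19 and Havcr1 -0.50 for LCDD against WT, and Krt18 -0.061 and Havcr1 -0.45 for DH-LMP2A against WT. With the tubule marker covariates reversed differences were Krt8 0.085, Krt18 0.30 and Havcr1 0.62 for LCDD against DH-LMP2A, and Cd44 -0.37, Krt8 -0.0083, Cdh6 -0.53, Sox9 -0.14 and Havcr1 -0.28 for LCDD against WT, and Krt8 -0.093, Krt18 -0.030 and Havcr1 -0.90 for DH-LMP2A against WT. With the Ddx3y covariate reversed differences were Cd44 -0.20 for LCDD against WT, and Cldn1 -0.16 for DH-LMP2A against WT. Without the 3 single-mouse WT libraries reversed differences were Cd44 -0.43, Krt8 -0.61, Krt18 -0.34, Cdh6 -0.12, Sox9 -0.65 and Havcr1 -0.51 for LCDD against WT, and Krt8 -0.081, Krt18 -0.028 and Havcr1 -0.45 for DH-LMP2A against WT. Without title code NS161202 reversed differences were Cldn1 -0.56, Krt8 0.041 and Krt18 0.41 for LCDD against DH-LMP2A. Without title code NS170411 reversed differences were Cd44 -0.037 and Lcn2 -0.42 for LCDD against DH-LMP2A, and Cd44 -0.35, Krt8 -0.16, Krt18 -0.065, Cdh6 -0.025 and Havcr1 -0.063 for LCDD against WT. Without title code NS171018 reversed differences were Havcr1 0.088 for LCDD against DH-LMP2A, and Cdh6 -0.30, Sox9 -1.125 and Lcn2 0.075 for LCDD against WT. Without title code NS180319 reversed differences were Cd44 -0.22, Krt8 -0.28, Sox9 -0.16 and Havcr1 -0.14 for LCDD against WT, and Havcr1 -0.014 for DH-LMP2A against WT.

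Leaving out 1 library at a time reversed differences that were not called. For LCDD against DH-LMP2A the ranges that crossed 0 were -0.41 to 0.69 for Cldn1, -0.98 to 0.12 for Krt8, -0.67 to 0.81 for Krt18, -0.58 to 0.52 for Havcr1 and -0.60 to 0.40 for Lcn2. For LCDD against WT the ranges that crossed 0 were -0.37 to 0.18 for Cd44, -0.18 to 1.504 for Krt8, -0.18 to 0.82 for Krt18, -0.17 to 0.36 for Cdh6, -0.89 to 0.87 for Sox9 and -0.24 to 1.595 for Havcr1. For DH-LMP2A against WT the ranges that crossed 0 were -0.58 to 1.100 for Krt18 and -0.21 to 1.63 for Havcr1. The named genes of the further lists kept their sign in all 26 alternatives each, and their calls were kept in 16 for Dkk3, 21 for Hmmr, 11 for Serpine2 and 13 for Ptn in LCDD against DH-LMP2A. In LCDD against WT they were kept in 15 for Cdh2, 23 for Hmmr, 19 for Ptpro and 17 for Ptn. These 4 calls against WT were lost with the Ddx3y covariate and without the 3 single-mouse WT libraries.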
